A study of Mus musculus with 35 samples.

Results

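Glycolysis and hypoxia-response genes are described here across mouse cells undergoing reprogramming. The group holds 34 genes: 2 glucose transporters, 2 lactate and pyruvate transporters, 11 genes of upper glycolysis, 7 of lower glycolysis, 2 lactate dehydrogenase subunits, 4 pyruvate dehydrogenase kinases and 6 hypoxia targets or regulators. They were chosen by name and function, without a cut on their values but with earlier results of these data known, from a table of 21350 genes. All 34 were in the table, and all 34 were among the 13860 genes that passed a filter on low values (at least 10 in at least 2 libraries).

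Libraries of poly-A RNA came from cells cultured in iCD1, a reprogramming medium, after infection with combinations of factors. The labels name the combinations ODR, OA and OB (days 1, 6 and 14) and ODDR and ODB (day 9) without expanding the letters, while Kdm2b, Oct4 and PRC1.1, a variant Polycomb complex, are named in the title and design of the series. Some ODR and OB cultures (day 6) and ODDR and ODB cultures (day 9) were also given BMP4, a growth factor, at 10 ng/ml once the medium had been changed. Libraries of mouse embryonic stem cells (mESC) and mouse embryonic fibroblasts (MEF), 1 each, have no replicate. The groups used for tests were ODR, OA and OB at day 1 (2 libraries each), ODR (2), OA (3) and OB (4) at day 6, ODR, OA and OB at day 14 (3 each), OB with BMP4 at day 6 (2), and ODR with BMP4 at day 6, which was left with 1 library and so has no replicate. The labels give neither the starting cell, strain nor sex of the reprogramming cells, nor the origin of the replicates, so the spread behind each p-value is that of libraries and could be technical.

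Glycolysis converts glucose to pyruvate in the cytosol, and pyruvate is either reduced to lactate by lactate dehydrogenase and exported or oxidised in mitochondria through pyruvate dehydrogenase, which pyruvate dehydrogenase kinases inhibit. Many of these genes are direct targets of hypoxia-inducible factor (HIF), whose alpha subunit is hydroxylated by the Egln enzymes when oxygen is present and then degraded through Vhl, so that the protein can change without a change in its messenger RNA. Reprogramming of fibroblasts to pluripotency is known for a shift from oxidative to glycolytic metabolism.

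The deposited values are normalised whole numbers, written here as values without a unit. Column totals ran from 4255921 to 4398785, and the highest value, 18690, was shared by 9 or 10 genes in each library. This ceiling was reached by 3 of the 34 genes (Gapdh, Pgk1 and Pkm), and no library holds a value between 9314 and 18690. A fold change in which a group has libraries at the ceiling rests on this assigned value and may be too small or too large. Below it, values are also shared: the 249 to 275 genes above 2000 in a library share 186 to 198 distinct values, so strongly expressed genes move in steps. Equal values at the ceiling or on a step can hide spread between libraries, so the SE and p-value of such genes may be too small. ODR day 6 replicate 3 and ODR with BMP4 day 6 replicate 2 hold identical values and were left out of both groups, and the day 9 columns labelled ODDR with BMP4 and ODB with BMP4 are likewise identical, with Kdm2b at 239. Pou5f1 (Oct4) was at the ceiling in all reprogramming libraries but OB day 14 replicate 1 (7086), Kdm2b was at least 4220 in every OB library, and Kdm2a was at least 9294 in every OA library but the library labelled OA day 14 replicate 2 (721). That library goes against its label, and results of comparisons that include it are given with and without it. It also enters the estimate of spread that all comparisons share, so calls in other comparisons can depend on it.

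The comparison of OB with ODR asks how the combinations differ at each day. At day 14, 24 of the 34 genes were higher in OB and 4 were lower (limma, p below 0.05 after Benjamini-Hochberg adjustment across all genes), while 54.7% of all genes tested were called, 28.0% higher and 26.7% lower. The median log2 fold change of the 34 genes was 1.46, against 0.01 over all genes tested. Transporters, the phosphofructokinase genes Pfkl and Pfkp, most enzymes of lower glycolysis, Pdk1 and 4 of 6 hypoxia genes were higher, and Hk1, Eno2, Pdk2 and Ankrd37 were lower. Values of OB and ODR libraries did not overlap for 30 of the 34 genes, against 62.1% of all genes tested. At day 1 limma called no gene of the group (0.880% of all genes), and 4 had an unadjusted p below 0.05 (9.29% of all genes).

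**Figure D1:**
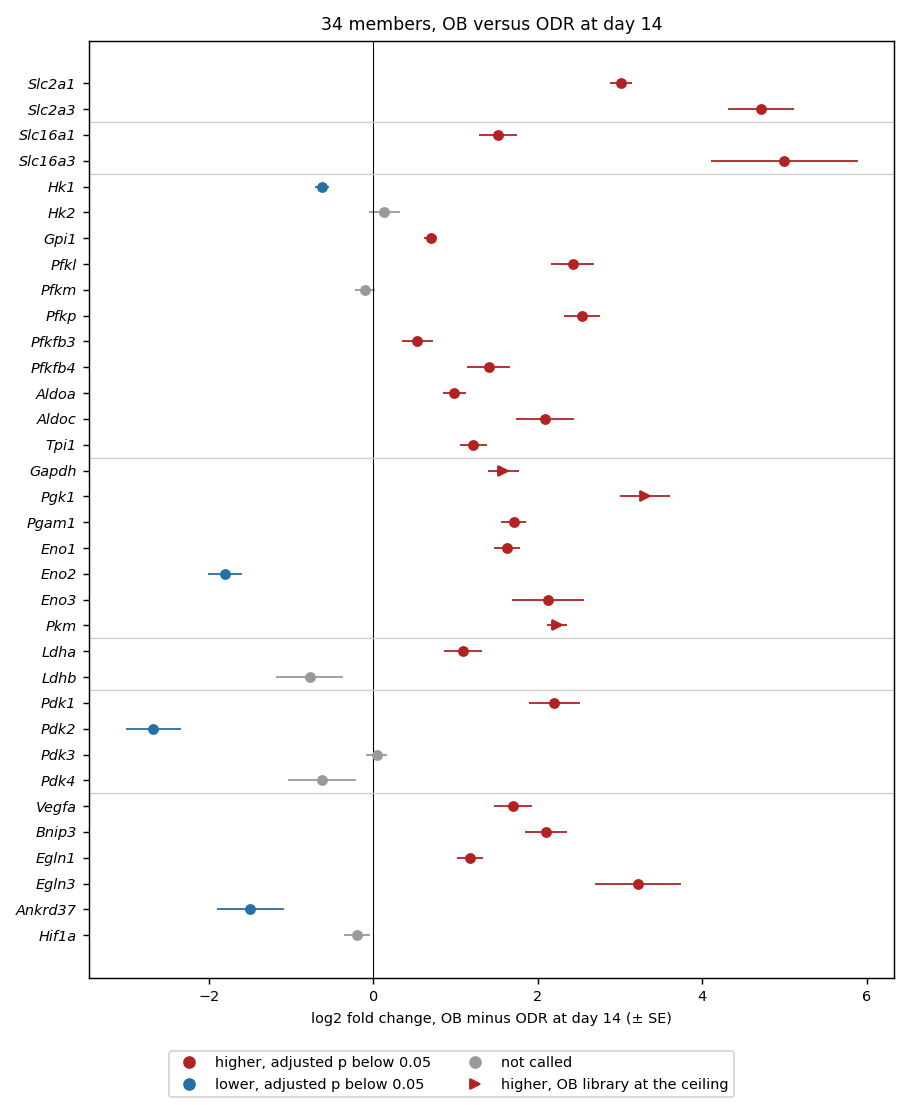
Log2 fold change of OB over ODR at day 14 for each of the 34 genes (x axis, on log2(value + 1), bars ± SE from limma, 3 libraries against 3), grouped by role. Red marks the 24 called higher, blue the 4 called lower, grey the 6 not called, and triangles the 3 genes with OB libraries at the ceiling.

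The promoters of 5 genes that were higher in OB at day 14 and of Ankrd37, which was lower, are shown because HIF binds DNA at a short core, written ACGTG or GCGTG. The sequences are the 250 bases before the transcript start in RefSeq on GRCm38.p6, and capitals mark ACGTG or GCGTG on either strand (reversed, CACGT or CACGC), so a CACGTG, the E-box bound by Myc family proteins, counts as a match on both strands. They are Slc16a3 (chr11:120948817-120949066, plus strand), Slc2a1 (chr4:119108495-119108744, plus), Pgk1 (chrX:106186850-106187099, plus), Ldha (chr7:46845554-46845803, plus), Bnip3 (chr7:138909507-138909756, minus) and Ankrd37 (chr8:45999851-46000100, minus), each read 5′ to 3′ on the gene's strand.
Slc16a3: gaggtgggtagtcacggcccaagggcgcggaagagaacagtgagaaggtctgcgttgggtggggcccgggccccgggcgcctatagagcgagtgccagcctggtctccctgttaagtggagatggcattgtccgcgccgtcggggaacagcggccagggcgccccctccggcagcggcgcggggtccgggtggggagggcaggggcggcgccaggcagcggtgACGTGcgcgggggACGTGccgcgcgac
Slc2a1: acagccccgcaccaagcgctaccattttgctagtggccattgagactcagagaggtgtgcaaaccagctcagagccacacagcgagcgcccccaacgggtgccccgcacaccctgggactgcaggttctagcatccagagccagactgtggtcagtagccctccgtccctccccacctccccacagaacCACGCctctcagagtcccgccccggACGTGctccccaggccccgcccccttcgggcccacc
Pgk1: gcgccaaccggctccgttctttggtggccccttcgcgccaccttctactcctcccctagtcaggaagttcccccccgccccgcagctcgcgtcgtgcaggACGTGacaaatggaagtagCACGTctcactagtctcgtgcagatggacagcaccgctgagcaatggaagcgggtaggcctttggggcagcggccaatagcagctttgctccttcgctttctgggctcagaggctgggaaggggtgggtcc
Ldha: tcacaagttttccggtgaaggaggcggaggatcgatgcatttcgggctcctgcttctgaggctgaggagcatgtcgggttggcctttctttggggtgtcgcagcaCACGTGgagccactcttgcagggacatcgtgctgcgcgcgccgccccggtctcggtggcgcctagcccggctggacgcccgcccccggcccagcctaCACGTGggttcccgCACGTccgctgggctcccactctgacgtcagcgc
Bnip3: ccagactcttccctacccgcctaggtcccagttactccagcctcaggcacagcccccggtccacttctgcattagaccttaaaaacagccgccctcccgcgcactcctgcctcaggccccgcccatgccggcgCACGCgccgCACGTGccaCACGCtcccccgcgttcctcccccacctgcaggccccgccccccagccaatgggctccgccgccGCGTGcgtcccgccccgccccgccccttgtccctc
Ankrd37: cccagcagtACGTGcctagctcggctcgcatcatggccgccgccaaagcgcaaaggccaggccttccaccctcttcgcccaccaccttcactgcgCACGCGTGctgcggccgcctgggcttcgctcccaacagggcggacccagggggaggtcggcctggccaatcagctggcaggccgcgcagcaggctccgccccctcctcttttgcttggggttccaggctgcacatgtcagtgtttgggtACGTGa

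Of the 34 genes, 33 had a promoter in the RefSeq table (Slc2a3 was not matched). ACGTG or GCGTG stood in a promoter of 30 of the 33 (90.9%), against 60.0% of the 10669 tested genes with a promoter of the same length. For ACGTG alone the shares were 57.6% and 24.5%, and for CACGTG 21.2% and 9.61%. A gene with several promoters has more places for a match. By promoter (48 and 13633), the shares for ACGTG or GCGTG were 79.2% and 54.1%. For ACGTG alone they were 45.8% and 20.8%, and for CACGTG 14.6% and 7.97%. Mean GC content was 60.8% in the promoters of the group and 59.5% in all of them. Bnip3 and the Ldha start shown each held 5 matches, Ankrd37 held 4, and Slc16a3, Slc2a1 and Pgk1 held 2 each. Egln3, which was higher in OB, held 1. The genes without a match were Gpi1 and Tpi1, which were higher, and Eno2, which was lower. Hk1 and Pdk2, also lower, held 3 and 2 at the start with more matches. A match is a description of the sequence and does not show binding, and no chance test was made because the genes were chosen by function.

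Both glucose transporters were higher in OB at day 14. Slc2a1 (chr4:119108711-119137983, plus strand, GRCm38), the widely expressed transporter GLUT1, had values of 3007, 2798 and 2717 in OB and 364, 355 and 336 in ODR. The log2 fold change was 3.01 ± 0.13 (SE, adjusted p = 1.59e-10), and every OB library lay above every other column of the table, the next being mESC at 1016. Slc2a3 (chr6:122727809-122801640, minus strand), the high-affinity transporter GLUT3 of neurons and stem cells, had 1850, 1749 and 1556 in OB and 52, 55 and 92 in ODR. Its log2 fold change was 4.72 ± 0.40 (adjusted p = 4.89e-08), and the mESC library stood higher still at 5617.

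Slc16a3 (chr11:120948480-120960868, plus strand), the lactate exporter MCT4 and a known HIF target, showed the greatest log2 difference of the group. It had 1205, 996 and 816 in OB and 50, 30 and 18 in ODR, a log2 fold change of 5.0 ± 0.89 (adjusted p = 1.22e-04). The ODR libraries differ by more than 2-fold among themselves, and the groups are still far apart. Slc16a1, the transporter MCT1 that moves lactate and pyruvate in either direction, had 446, 352 and 412 against 124, 163 and 134, a log2 fold change of 1.52 ± 0.23 (adjusted p = 2.24e-05).

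Of the 11 genes of upper glycolysis, 8 were higher, 1 was lower and 2 were not called. Pfkp and Pfkl encode the platelet-type and liver-type subunits of phosphofructokinase, the committed step of glycolysis. Pfkp had 1070, 836 and 648 in OB and 144, 129 and 157 in ODR (log2 fold change 2.54 ± 0.22, adjusted p = 5.36e-08). Pfkl had 1534, 1392 and 1070 in OB and 226, 283 and 228 in ODR (2.43 ± 0.26, adjusted p = 5.60e-07). In contrast, the muscle-type subunit Pfkm had 254, 274 and 260 in OB and 305, 271 and 272 in ODR, groups that overlap, with a log2 fold change of -0.10 ± 0.12 (adjusted p = 0.491).

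Aldoc, the brain-type aldolase that splits fructose bisphosphate, had 295, 260 and 207 in OB and 54, 41 and 90 in ODR (2.09 ± 0.35, adjusted p = 6.40e-05). The ubiquitous aldolase Aldoa was also higher, by 0.99 ± 0.14 (adjusted p = 1.60e-05), as was the triose phosphate isomerase gene Tpi1, by 1.22 ± 0.16 (adjusted p = 6.72e-06), and the glucose phosphate isomerase gene Gpi1, by 0.70 ± 0.08 (adjusted p = 1.45e-06). Pfkfb4 and Pfkfb3 encode enzymes that make and break down an activator of phosphofructokinase. Pfkfb4 was higher by 1.41 ± 0.26 (adjusted p = 1.71e-04) and Pfkfb3 by 0.53 ± 0.19 (adjusted p = 0.0240). The Pfkfb3 call was lost without OB day 14 replicate 1 (0.33, adjusted p = 0.165) and without ODR day 14 replicates 1 (0.51, adjusted p = 0.0618) or 2 (0.54, adjusted p = 0.0509).

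The hexokinases, which trap glucose in the cell by phosphorylation, did not follow the transporters. Hk1 was lower in OB, with 446, 406 and 392 against 650, 626 and 643, and the log2 fold change was -0.63 ± 0.09 (adjusted p = 9.88e-06). All 3 OB values lay below every other column of the table. Hk2, the isoform often induced with growth and by HIF, had 1000, 578 and 554 in OB and 667, 640 and 568 in ODR, with a log2 fold change of 0.13 ± 0.19 (adjusted p = 0.577). OB replicate 1 lies above the ODR range, replicate 2 within it and replicate 3 below it, so the groups overlap.

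In lower glycolysis, 6 of 7 genes were higher and Eno2 was lower. Pgk1 (chrX:106187100-106203699, plus strand), the kinase of the first ATP-yielding step, had 9301, 18690 and 9301 in OB and 968, 1194 and 1452 in ODR, a log2 fold change of 3.30 ± 0.31 (adjusted p = 1.10e-07) in which 1 OB library is at the ceiling. Pkm, pyruvate kinase, was at the ceiling in all 3 OB libraries and at 3698, 4220 and 3999 in ODR, a log2 fold change of 2.24 ± 0.12 (adjusted p = 1.10e-09). Gapdh, which is often used as a reference gene for constant expression, was at the ceiling in all 3 OB libraries and at 6244 in each ODR library, a log2 fold change of 1.58 ± 0.19 (adjusted p = 1.91e-06). None of these 3 genes overlapped between the groups, as was so for 62.1% of all genes tested. The equal values of Gapdh in both groups and of Pkm in OB hide any spread there, so their SE and p-values may be too small.

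Pgam1, phosphoglycerate mutase, had 5083, 4220 and 3176 in OB and 1148, 1244 and 1366 in ODR (1.71 ± 0.15, adjusted p = 6.61e-08). The enolases catalyse the step before pyruvate kinase, and the paralogues moved apart. Eno1, the ubiquitous enolase, had 4214, 4214 and 3489 against 1280, 1390 and 1182 (1.63 ± 0.16, adjusted p = 2.43e-07). Eno3, the muscle enolase, had 48, 55 and 48 against 8, 11 and 14 (2.13 ± 0.43, adjusted p = 4.50e-04). Eno2 (chr6:124760053-124769673, minus strand), the neuronal enolase, went the other way, with 81, 88 and 64 in OB and 253, 278 and 282 in ODR (-1.80 ± 0.21, adjusted p = 1.31e-06). The annotation (GENCODE M21) names pseudogenes of Aldoa, Gapdh, Pgk1, Pgam1 and Ldha and a retrogene of Eno1, Eno1b, and how the counting divided reads between near-identical copies is not given, so these values are uncertain to that extent.

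The lactate dehydrogenase subunits differed. Ldha, the subunit that favours lactate formation, had 5614, 4617 and 3989 in OB and 2176, 2215 and 2215 in ODR, a log2 fold change of 1.09 ± 0.23 (adjusted p = 6.02e-04). Ldhb, the heart-type subunit, had 662, 816 and 852 in OB and 1132, 1350 and 1510 in ODR. These libraries do not overlap, but the log2 fold change of -0.77 ± 0.41 was not called (adjusted p = 0.121). The fit shares its estimate of the spread over all groups, and without the library labelled OA day 14 replicate 2, where Ldhb was 156, the same difference was called (SE 0.16, adjusted p = 5.04e-04).

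Among the pyruvate dehydrogenase kinases, Pdk1 and Pdk2 changed in opposite directions. Pdk1 (chr2:71873224-71903858, plus strand), the HIF-responsive isoform, had 976, 702 and 544 in OB and 154, 157 and 156 in ODR (2.2 ± 0.31, adjusted p = 1.06e-05). Pdk2 (chr11:95026258-95041354, minus strand), a broadly expressed isoform, had 6, 7 and 6 in OB and 42, 53 and 43 in ODR (-2.68 ± 0.33, adjusted p = 2.83e-06). The OB values of Pdk2 were the lowest of the table, and with 16 rather than 1 added before the log its log2 fold change was -1.47. Pdk3 (0.04 ± 0.13, adjusted p = 0.818) and Pdk4 (-0.62 ± 0.42, adjusted p = 0.218) were not called, and their groups overlap.

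Of the 6 hypoxia targets and regulators, 4 were higher in OB and 1 was lower. Egln3, a HIF prolyl hydroxylase that is itself induced by HIF, had 150, 98 and 53 in OB and 13, 7 and 8 in ODR (3.22 ± 0.52, adjusted p = 4.97e-05). Bnip3 (chr7:138890836-138909519, minus strand), a mitophagy receptor, had 1593, 1046 and 863 against 270, 282 and 237 (2.10 ± 0.25, adjusted p = 1.74e-06). Vegfa, the angiogenic growth factor, had 1364, 885 and 680 against 293, 286 and 283 (1.70 ± 0.23, adjusted p = 6.06e-06). Egln1, the main hydroxylase that marks HIF for degradation, was higher by 1.18 ± 0.16 (adjusted p = 6.43e-06).

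Ankrd37 (chr8:45996902-46005707, minus strand), an ankyrin repeat gene known as a HIF target in other cells, was lower in OB, with 66, 46 and 40 against 111, 187 and 136 (-1.49 ± 0.41, adjusted p = 4.85e-03). Its exons overlap those of Lrp2bp and Ufsp2 on the opposite strand, and whether the counting used strand is not given. The mRNA of Hif1a itself, the HIF alpha subunit, had 884, 985 and 985 in OB and 1064, 1126 and 1080 in ODR. The libraries do not overlap, but the difference of -0.20 ± 0.16 was not called (adjusted p = 0.310). Exons of Slc2a1, Hk1, Gpi1, Pfkm, Pfkp, Aldoa, Tpi1, Gapdh, Bnip3 and Hif1a also overlap a gene on the opposite strand, to which the same limit applies. Exons of Pfkm, Pkm and Hif1a overlap a gene on the same strand (Gm26513, Gm49759 and Gm49321), which counting by strand would not separate.

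**Figure D2:**
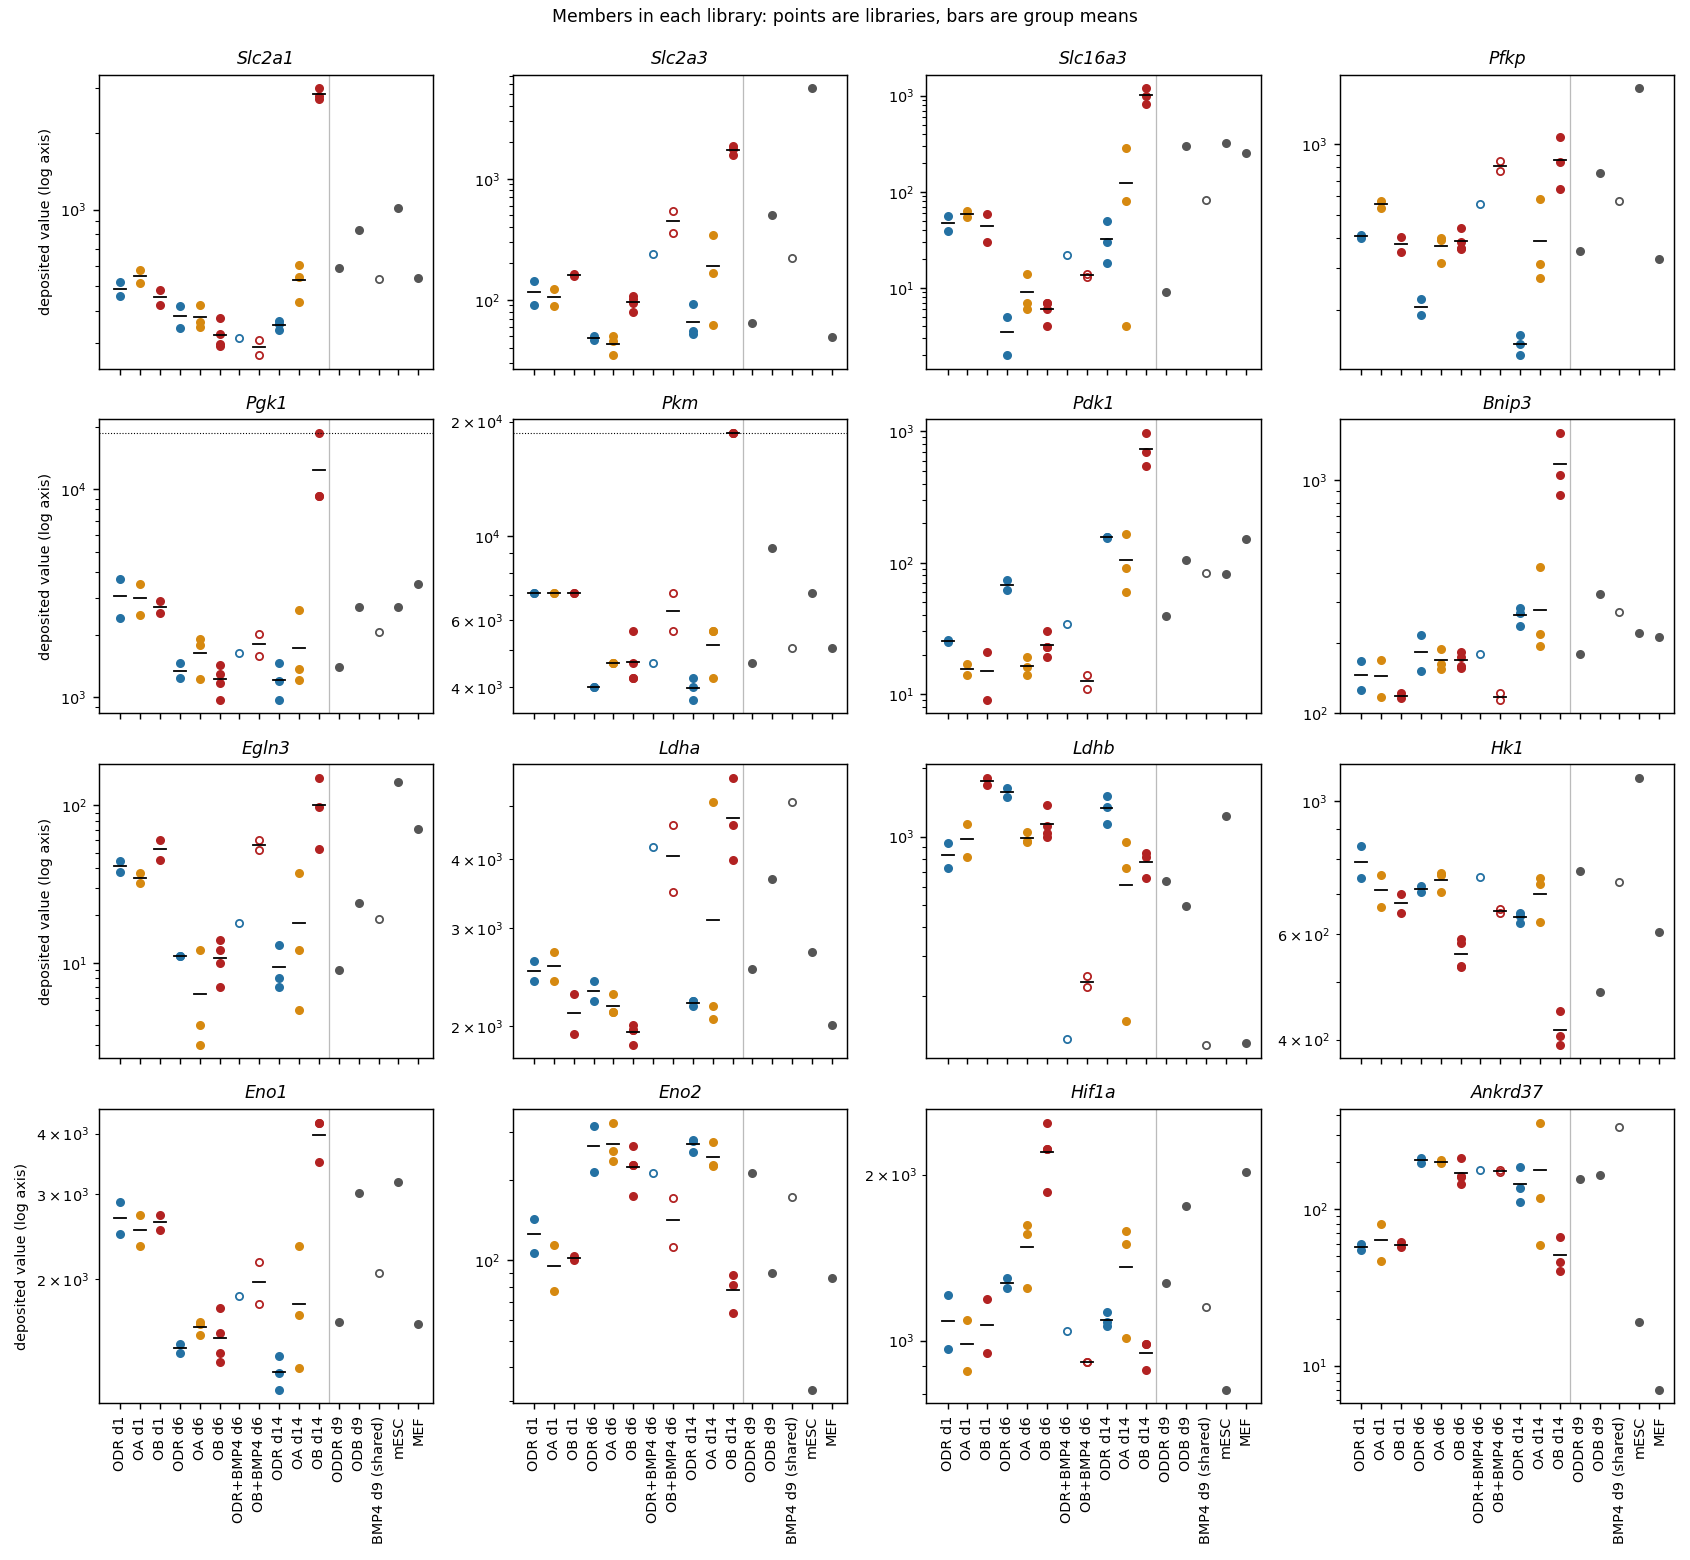
Deposited values (log axes) of 16 of the 34 genes in every library: points are libraries, bars are group means, open points are cultures with BMP4, and grey points to the right of the line have 1 library per label. The dotted line in the Pgk1 and Pkm panels is the ceiling of 18690, and OB day 14 stands above all other columns for Slc2a1, Slc16a3, Pgk1, Pkm, Pdk1, Bnip3 and Eno1 and below them for Hk1.

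Within OB at day 14 the libraries were not equal. Replicate 1 held the highest value for 17 of the 24 genes called higher, with 4 ties, against 63.8% of all genes called higher. Without it, 27 of the 34 genes were called, against 28 with it. The OB libraries at day 14 lay above every other column for 11 genes (Slc2a1, Slc16a3, Gpi1, Pfkl, Tpi1, Pgk1, Eno1, Pkm, Pdk1, Vegfa and Bnip3), against 5.06% of all genes tested. They lay below every other column for Hk1 and Pdk2, against 2.71% of all genes tested. All 3 OB libraries were above the mESC library for 21 genes and below it for 9, against 44.4% and 38% of all genes tested. They were above the MEF library for 26 genes and below it for 5, against 42.8% and 38.7%. The mESC and MEF libraries have no replicate, and these positions carry no test.

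Genes around the pathway were read from lists of related function, which were also chosen with earlier results of these data known. Of 23 other hypoxia-induced genes tested, 15 were higher in OB than ODR at day 14 and 2 were lower (73.9% called, against 54.7% of all genes), with a median log2 fold change of 1.00. The stress-induced mTOR inhibitor Ddit4 had 1106, 464 and 577 in OB and 83, 71 and 144 in ODR (2.80 ± 0.32, adjusted p = 1.21e-06). The glycoprotein gene Stc2 had 298, 148 and 114 against 19, 22 and 32 (2.80 ± 0.45, adjusted p = 3.85e-05), and Ppp1r3c, a glycogen-targeting phosphatase subunit, had 32, 17 and 19 against 1, 3 and 8 (2.46 ± 0.54, adjusted p = 8.92e-04). OB replicate 1 was the highest of the 3 OB libraries in all 15 of the genes called higher. The 2 that fell were Ppp1r3b (-1.54 ± 0.16, adjusted p = 3.06e-07), another glycogen-targeting subunit, and Insig2 (-0.94 ± 0.25, adjusted p = 3.43e-03), a regulator of sterol synthesis.

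Of 7 other genes of the HIF system tested, 1 was higher and 3 were lower, and the share called (57.1%) was near the 54.7% of all genes. The inhibitor of HIF transactivation Hif1an was higher by 0.45 ± 0.11 (adjusted p = 2.46e-03). The alternative alpha subunits Hif3a, at 63, 59 and 53 in OB against 328, 306 and 237 in ODR (-2.29 ± 0.33, adjusted p = 1.21e-05), and Epas1, at 218, 404 and 462 against 768, 720 and 790 (-1.14 ± 0.36, adjusted p = 0.0117), were lower. The hydroxylase Egln2 was also lower (-0.59 ± 0.11, adjusted p = 2.55e-04), and Vhl, the ubiquitin ligase subunit that removes hydroxylated HIF, differed by 0.03 ± 0.17 (adjusted p = 0.895).

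In the pentose phosphate pathway, which branches from glycolysis to make ribose and NADPH, 5 of 9 genes were higher and 1 was lower (66.7% called). Prps1, which activates ribose for nucleotide synthesis, was higher by 2.06 ± 0.15 (adjusted p = 1.28e-08) and the transketolase Tkt by 1.68 ± 0.13 (adjusted p = 2.03e-08), whereas H6pd of the endoplasmic reticulum was lower (-2.22 ± 0.24, adjusted p = 7.04e-07). Of 21 genes of pyruvate entry and the citric acid cycle, 9 were higher and 3 lower, with a median of 0.21, and the share called (57.1%) was again near the 54.7% of all genes. Those with the greatest changes were the pyruvate dehydrogenase phosphatase Pdp2 (1.06 ± 0.24, adjusted p = 1.09e-03), the fumarase gene Fh1 (1.02 ± 0.13, adjusted p = 2.73e-06), Pdp1 (-1.22 ± 0.17, adjusted p = 8.26e-06) and the mitochondrial pyruvate carrier subunit Mpc1 (-1.21 ± 0.21, adjusted p = 8.40e-05). Less widely used hexose and glycolysis genes (17 tested) split into 4 higher and 6 lower, with a median of -0.86 and a share called (58.8%) also near that of all genes. The tissue-restricted transporters Slc2a10 (-3.18 ± 0.26, adjusted p = 3.68e-08) and Slc2a12 (-2.76 ± 0.57, adjusted p = 5.04e-04) were among the lower. Of 3 gluconeogenesis genes tested, none was higher and 2 were lower (66.7% called), Pcx (-0.82 ± 0.16, adjusted p = 2.67e-04) and G6pc3 (-0.59 ± 0.17, adjusted p = 8.12e-03).

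Of 8 transcriptional regulators and sensors of glycolysis, 4 were higher in OB and 2 were lower (75% called, against 54.7% of all genes). Mycn, a Myc family factor of stem and progenitor cells, had 247, 134 and 118 in OB and 3, 2 and 6 in ODR (5.18 ± 0.76, adjusted p = 1.57e-05), and Mycl was higher by 4.02 ± 0.46 (adjusted p = 1.12e-06). Myc had 234, 150 and 146 against 79, 54 and 54 (1.48 ± 0.57, adjusted p = 0.0343). Txnip, which limits glucose uptake and is induced by glucose, had 534, 684 and 454 against 260, 146 and 214 (1.45 ± 0.39, adjusted p = 4.05e-03), while its relative Arrdc4 was lower (-0.74 ± 0.18, adjusted p = 2.19e-03), as was the Myc partner Max (-0.54 ± 0.14, adjusted p = 3.28e-03).

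Other cell properties moved with the same comparison. All 18 proliferation genes tested were higher in OB at day 14, with a median log2 fold change of 1.99 and summed values of 19184 to 23289 against 5687 to 5951 in ODR. The 12 fibroblast markers, of which 3 were higher and 3 lower, summed to 27188 to 44348 against 54000 to 63750, and none was at 0. Much of these sums lies at the ceiling, which Fn1 and Postn reached in all 3 ODR libraries and Fn1 in 2 of the OB libraries, so they compare the groups poorly. The 12 pluripotency markers summed to 1066 to 1161 in OB, 117 to 131 in ODR and 23734 in mESC. Of these, 3 were higher (Lin28a, Sox2 and Utf1) and none was lower, while Nanog (6, 4 and 5) and Esrrb (7, 2 and 1) stayed far below the mESC values of 2802 and 2345, so these libraries do not carry the pluripotent marker set in full. Sums for macrophage and leukocyte (10 to 40 against 44 to 89, 7 markers), endothelial (105 to 185 against 261 to 325, 6 markers), skeletal muscle (420 to 1077 against 781 to 1456, 6 markers) and erythroid markers (3 to 3 against 4 to 7, 6 markers) were lower or overlapped, and Myod1, Myog, Ckm and Hba-a1 were at 0 in all of these libraries. The test called 1 macrophage and leukocyte marker, which was lower, and no muscle or erythroid marker. The endothelial markers went both ways: Kdr (6, 18 and 25 against 112, 170 and 138) and Tek (23, 30 and 19 against 142, 142 and 82) were lower in OB, and Cldn5 (15, 71 and 18 against 4, 6 and 5) and Emcn (42, 49 and 44 against 0, 0 and 25) were higher. The part of proliferation and cell makeup in the metabolic differences was not tested, and in bulk samples fewer cells of a type and less RNA per cell cannot be told apart.

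Setting OB against OA asks whether the difference at day 14 holds against the other combination, and it shares the OB libraries with the comparison above. Of the 34 genes, 23 were higher in OB than OA and 5 were lower (51.7% of all genes tested were called, 26.5% higher and 25.2% lower), with a median of 0.93 against 0.00. Slc16a3 (4.34 ± 0.89, adjusted p = 5.48e-04), Slc2a3 (3.47 ± 0.40, adjusted p = 1.80e-06), Pdk1 (2.88 ± 0.31, adjusted p = 8.74e-07) and Pgk1 (2.85 ± 0.30, adjusted p = 8.45e-07) differed most. Hk1, Eno2, Pdk2 and Ankrd37 were again lower, and Hif1a joined them (-0.49 ± 0.16, adjusted p = 0.0149). Without the library labelled OA day 14 replicate 2 the counts were 22 and 5, the Slc16a1 call was lost (0.34, adjusted p = 0.185), Slc16a3 differed by 5.62, Egln3 by 3.40 and Ankrd37 by -0.74. Slc16a3 (2.69), Slc2a3 (2.83) and Egln3 (2.07) were smaller without OA replicate 3, and Ankrd37, whose OB and OA values overlap, was -2.03 without OA replicate 1. The call was also lost for Slc16a1 without OB replicates 1 or 3, for Hk2 without OB replicate 1 (0.30) or OA replicate 1 (0.49), and for Ldha (0.60, 0.54 and 0.50) and Hif1a (-0.44, -0.37 and -0.41) without OB replicate 1, OA replicate 1 or OA replicate 3. A fit on the OB and OA libraries of day 14 alone called 17 of the 34 genes.

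OA differed from ODR at day 14 in fewer genes of the group than OB did. At day 14, 5 genes were higher in OA and 1 was lower (5.35% of all genes tested, 2.82% higher and 2.53% lower), with a median of 0.28 against 0.00. Aldoc had 140, 413 and 236 in OA (2.01 ± 0.35, adjusted p = 2.76e-03), Pfkp had 272, 583 and 313 (1.36 ± 0.22, adjusted p = 1.59e-03) and Pfkfb4 had 49, 45 and 48 (1.17 ± 0.26, adjusted p = 0.0120), each without overlap with ODR. Slc16a1 (0.88 ± 0.23, adjusted p = 0.030) and Slc2a1 (0.57 ± 0.13, adjusted p = 0.0155) were also higher, and Ldhb was lower (-1.47 ± 0.41, adjusted p = 0.0446).

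The library labelled OA day 14 replicate 2, in which Kdm2a was low, stood apart in the group as well. It held the highest value of the 3 OA libraries for 23 of the 34 genes, against 39.3% of all genes tested, including Ldha (5072 against 2175 and 2062), Slc16a3 (287 against 81 and 4), Ankrd37 (358 against 59 and 118) and Aldoc. Its Ldhb value was 156 against 730 and 952. Without it, 4 genes were higher in OA and 2 were lower (5.57% of all genes): Aldoc (1.62), Pfkfb4 (1.20), Slc16a1 (1.18), Pfkp (1.03), Ldhb (-0.66, adjusted p = 0.0380) and Pdk1 (-1.06, adjusted p = 0.0371), while Slc2a1 was no longer called (0.46, adjusted p = 0.0592). Without OA replicate 3, 11 genes were called, and without ODR replicates 1 or 3, 3 each. In a fit on the OA and ODR libraries of day 14 alone none of the 6 was called (adjusted p from 0.124 to 0.556).

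At day 6, before most of these differences, 2 genes were higher in OB than ODR and 3 were lower (10.5% of all genes tested were called, 5.74% higher and 4.81% lower), with a median of -0.01 in the group and over all genes. With the library labelled OA day 14 replicate 2 left out of the shared estimate of spread, 2 were higher and 4 lower (15.3% of all genes). Hif1a was higher in OB, at 2222, 2484, 2222 and 1857 against 1246 and 1300 (0.78 ± 0.17, adjusted p = 6.16e-03), whereas the day 14 difference was not called. Pfkp was also higher (444, 364, 385 and 360 against 190 and 223, 0.91 ± 0.23, adjusted p = 0.0168). Pdk1 was lower at day 6, at 23, 19, 23 and 30 against 62 and 74 (-1.49 ± 0.33, adjusted p = 6.89e-03), as were Egln1 (-0.57 ± 0.17, adjusted p = 0.0365) and Hk1 (-0.36 ± 0.09, adjusted p = 0.0188). With 2 ODR libraries these calls are fragile: without ODR replicate 1 only Pdk1 was called, and without ODR replicate 2 none was (adjusted p from 0.0537 to 0.257).

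Between OA and ODR at day 6, Pdk1 alone was called (16, 19 and 14 in OA, -2.00 ± 0.35, adjusted p = 6.03e-03; 2.22% of all genes were called, 1.34% higher and 0.880% lower), and not without ODR replicate 2 (-1.87, adjusted p = 0.107). Without the library labelled OA day 14 replicate 2, which is not part of this contrast but of the shared estimate of spread, 5 genes were called, Pfkp (0.83) and Pfkfb4 (1.12) higher and Ldhb (-0.66), Pdk1 and Pdk4 (-1.33) lower. Between OB and OA at day 6, Hif1a was higher in OB (0.58 ± 0.15, adjusted p = 0.0237), and Pfkfb4 (-0.86 ± 0.24, adjusted p = 0.0380), Egln1 (-0.50 ± 0.15, adjusted p = 0.0483) and Hk1 (-0.41 ± 0.08, adjusted p = 4.65e-03) were lower (7.28% of all genes, 3.92% higher and 3.35% lower). Of these calls Hk1 held with each library left out in turn, and from 1 to 3 genes were called without any of the OA or OB day 6 libraries and 7 without the library labelled OA day 14 replicate 2. At day 1, OA against ODR (0.0649% of all genes) and OB against OA (1.40%) gave no limma call in the group, with 1 and 2 genes at an unadjusted p below 0.05 (5.15% and 11.3% of all genes).

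Within OB, the rise came between day 6 and day 14. Of the 34 genes, 24 rose and 6 fell (55.0% of all genes tested, 26.8% higher and 28.2% lower), with a median of 1.26 against -0.01. Slc16a3 rose most, from 7, 7, 6 and 4 at day 6 (log2 fold change 7.17 ± 0.83, adjusted p = 1.45e-06), and the value was 5.52 with 16 added before the log. Pdk1 rose by 4.88 ± 0.29 (adjusted p = 2.11e-09), Slc2a3 from 94, 79, 101 and 107 by 4.16 ± 0.38 (adjusted p = 9.76e-08) and Slc2a1 from 374, 290, 324 and 296 by 3.15 ± 0.12 (adjusted p = 2.29e-11). Pgk1 rose by 3.28 ± 0.29 (adjusted p = 6.91e-08), Egln3 by 3.02 ± 0.49 (adjusted p = 5.05e-05), Bnip3 by 2.74 ± 0.23 (adjusted p = 6.06e-08) and Pfkl by 2.64 ± 0.24 (adjusted p = 1.23e-07). None of these 8 genes overlapped between the days, which was also so for 30 of the 34 genes and for 8013 of the 13860 genes tested.

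The genes that fell in OB from day 6 to day 14 were Ankrd37 (-1.74 ± 0.38, adjusted p = 9.05e-04), Pdk2 (-1.56 ± 0.31, adjusted p = 3.71e-04), Eno2 (-1.51 ± 0.20, adjusted p = 4.86e-06), Hif1a (-1.20 ± 0.15, adjusted p = 2.92e-06), Pdk3 (-0.60 ± 0.12, adjusted p = 4.71e-04) and Hk1 (-0.42 ± 0.08, adjusted p = 2.71e-04). Hif1a mRNA thus fell over the interval in which 24 other genes of the group rose. The Pfkfb3 rise (0.48 ± 0.18, adjusted p = 0.0309) was lost without OB day 14 replicate 1 (0.27, adjusted p = 0.230) or OB day 6 replicates 1 (0.41, adjusted p = 0.0797) or 4 (0.40, adjusted p = 0.0864).

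In ODR no gene of the group was called between day 6 and day 14 (limma, 3.95% of all genes), with 4 at an unadjusted p below 0.05 (18.0% of all genes), of which Pdk1 had the smallest (1.19 ± 0.35, adjusted p = 0.0622). Without the library labelled OA day 14 replicate 2 the calls were Pdk1 (adjusted p = 0.0159) and Slc16a3 (2.87, adjusted p = 0.0255). The change over these days differed between OB and ODR for 26 of the 34 genes by a test of the difference itself, 23 in the direction of OB and 3 against it (35.4% of all genes, 18.3% and 17.2%), with a median of 1.34 against 0.00. The 3 were Pdk2, Eno2 and Hif1a. The differences of the other 23 ran from 0.65 ± 0.12 for Gpi1 to 4.30 ± 1.30 for Slc16a3. The difference for Slc16a3 was no longer called without ODR day 6 replicate 1 (3.80, adjusted p = 0.0742), nor were those of Pfkfb4 (0.70) and Eno3 (1.62). Eno3 (1.72) and Pfkfb4 (1.02) were also lost without ODR day 14 replicate 1, and Pfkfb3 (0.64 and 0.74) without OB day 14 replicate 1 or ODR day 6 replicate 2.

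In OA, 5 genes rose and 1 fell from day 6 to day 14 (8.14% of all genes, 4.05% higher and 4.08% lower). Pdk1 rose from 16, 19 and 14 to 91, 166 and 60 (2.51 ± 0.31, adjusted p = 1.27e-04) and Slc2a3 from 35, 46 and 50 to 168, 344 and 62 (1.80 ± 0.40, adjusted p = 0.0111). Pdk4 (1.52 ± 0.42, adjusted p = 0.0316), Pfkl (0.94 ± 0.26, adjusted p = 0.0339, with overlapping groups) and Slc2a1 (0.47 ± 0.13, adjusted p = 0.0340) rose and Pdk3 fell (-0.45 ± 0.13, adjusted p = 0.0422). Pdk4 values were low, at 5, 3 and 4 on day 6 and 11, 33 and 6 on day 14. Its rise was not called with 16 added before the log (0.62, adjusted p = 0.0645). Without the library labelled OA day 14 replicate 2, Pdk1 (2.12), Slc2a3 (1.22), Pdk3 (-0.53) and Ankrd37 (-1.26) were called, and Pdk4 (0.89, adjusted p = 0.114), Pfkl (0.61, adjusted p = 0.133) and Slc2a1 (0.37, adjusted p = 0.116) were not. The Pdk3 call was lost without OA day 14 replicate 1 (-0.24, adjusted p = 0.150) and without OA day 6 replicates 1 (-0.46), 2 (-0.38) or 3 (-0.51). Pfkl (0.80, adjusted p = 0.102) and Slc2a1 (0.45, adjusted p = 0.0795) were also lost without OA day 14 replicate 1. Pfkl was lost without any 1 of the OA day 6 libraries, and Slc2a1 and Pdk4 without OA day 6 replicates 2 or 3. Without OA day 14 replicate 3, 12 genes were called and Slc2a3 stood at 2.45, and without OA day 6 replicates 2 or 3, 2 each. The change did not differ between OA and ODR for any of the 34 genes in the limma test of the difference (0% of all genes), 4 of them at an unadjusted p below 0.05 (6.95% of all genes).

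**Figure D3:**
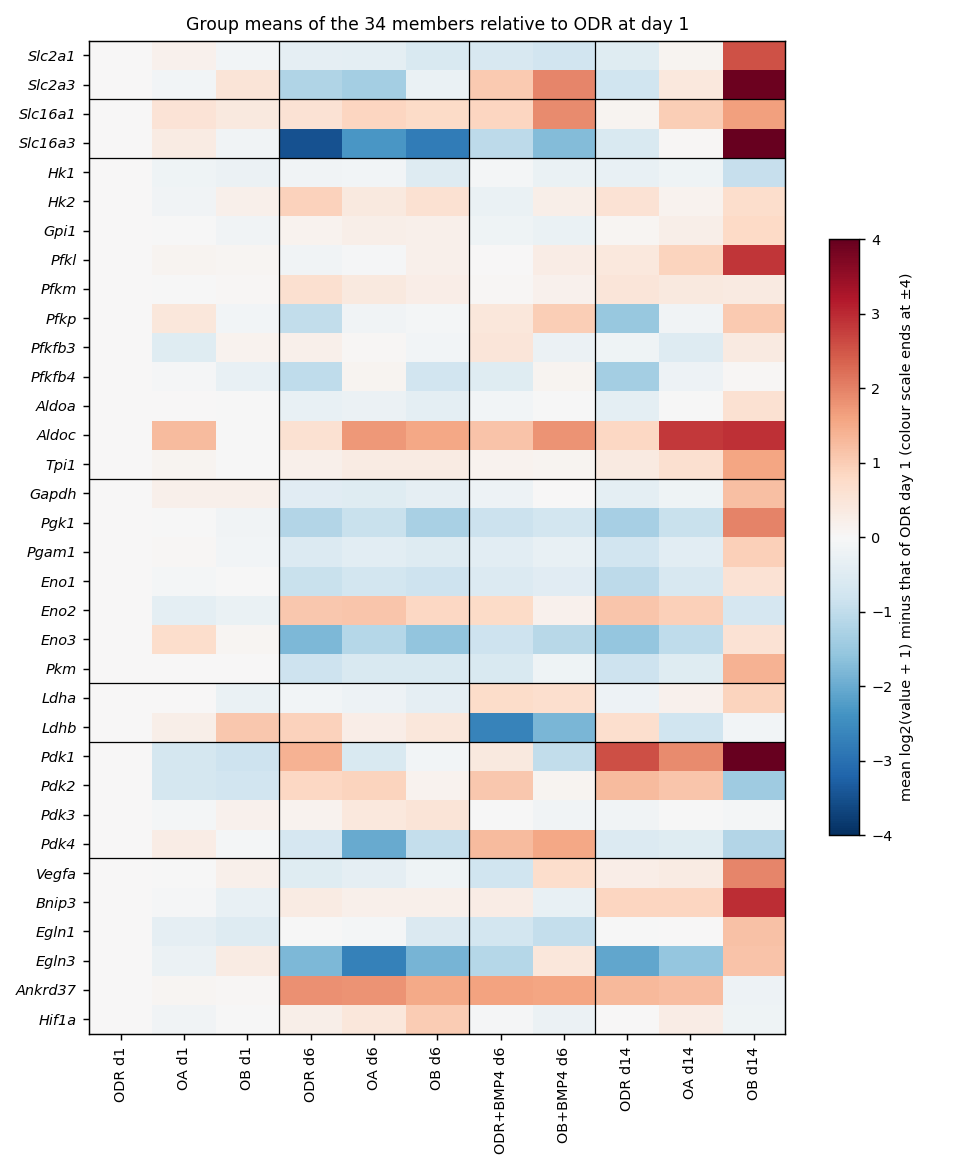
Group means of log2(value + 1) for the 34 genes (rows, by role) in the 11 tested groups (columns; ODR with BMP4 is 1 library), each minus the mean of ODR at day 1; the colour scale ends at 4 either way. The OB day 14 column holds the deepest red, and the day 6 columns show the lower Slc16a3, Eno3 and Egln3 and the higher Eno2 and Ankrd37.

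Between day 1 and day 6 the group moved in both directions in every combination: 5 rose and 9 fell in ODR (25.1% of all genes called, 12.6% higher and 12.5% lower), 7 and 10 in OA (34.6%, 17.0% and 17.6%) and 5 and 9 in OB (33.8%, 16.7% and 17.1%). Medians were -0.13, 0.05 and -0.18, against -0.03, -0.02 and -0.03 over all genes. In each combination 5 of the 7 genes of lower glycolysis fell and Eno2 rose. Slc16a3, Eno1, Eno3, Pkm and Egln3 were called lower, and Eno2 and Ankrd37 higher, in all 3 combinations. Of these calls, Pkm held with each library left out in turn in all 3 combinations, Eno1 in ODR and OB, Eno2 in OA and OB, and Egln3 in OA. In ODR, the calls of Slc16a3, Egln3 and Ankrd37 were each lost without any 1 of the 4 libraries compared. The Slc16a3 call was likewise lost without any 1 of the 6 libraries compared in OB (lost values from -3.12 to -2.17), and in OA without any but OA day 6 replicate 1.

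Pkm was 7096 in all 6 day 1 libraries and 3999 to 5620 at day 6, and fell, with log2 changes of -0.83 ± 0.15 in ODR (adjusted p = 5.10e-04), -0.62 ± 0.13 in OA (adjusted p = 1.75e-03) and -0.61 ± 0.13 in OB (adjusted p = 1.26e-03). Slc16a3 fell, with log2 changes of -3.49 ± 1.09 in ODR (adjusted p = 0.0256), -2.67 ± 1.00 in OA (adjusted p = 0.0462) and -2.65 ± 0.95 in OB (adjusted p = 0.0380), but with 16 added before the log none of the 3 was called (-1.69, -1.60 and -1.42). Ankrd37 rose by 1.82 ± 0.50 (adjusted p = 0.0128), 1.70 ± 0.46 (adjusted p = 8.18e-03) and 1.48 ± 0.44 (adjusted p = 0.0136), and Eno2 by 1.07 ± 0.26 (adjusted p = 5.11e-03), 1.51 ± 0.23 (adjusted p = 8.78e-05) and 1.10 ± 0.22 (adjusted p = 9.40e-04). Hif1a rose in OB (1.04 ± 0.17, adjusted p = 1.39e-04) and OA (0.58 ± 0.18, adjusted p = 0.0171).

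In OB the genes called higher at day 6 than at day 1 were Eno2, Ankrd37, Hif1a, Aldoc (1.55 ± 0.37, adjusted p = 3.64e-03) and Gpi1 (0.33 ± 0.09, adjusted p = 7.38e-03). Of these, Eno2, Ankrd37 and Hif1a fell again from day 6 to day 14, whereas Aldoc and Gpi1 rose further. Eno2 stood at 81, 88 and 64 in OB at day 14 against 104 and 100 at day 1, and Ankrd37 at 66, 46 and 40 against 62 and 57. Proliferation genes moved in the same interval, with no gene higher and 5, 14 and 9 of 18 lower at day 6 than at day 1 in ODR, OA and OB, and their part in the result was not tested. With 2 libraries per group at day 1, leaving out 1 library gave from 4 to 17 called genes in ODR, 5 to 20 in OA and 6 to 21 in OB, the lowest counts being without ODR day 1 replicate 2, OA day 1 replicate 2 and OB day 1 replicate 2, and the highest without the library labelled OA day 14 replicate 2. Counts fell to 9, 6 and 6 in ODR without day 1 replicate 1 and day 6 replicates 1 and 2, and to 11 in OA without day 1 replicate 1 or day 6 replicate 2.

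BMP4, a ligand that drives mesenchymal-to-epithelial change early in reprogramming, was compared with no BMP4 at day 6. In OB, 9 genes rose and 5 fell (32.5% of all genes tested, 15.0% higher and 17.5% lower), with a median of 0.22 against -0.02. Ldhb fell to 218 and 244 from 1036, 1001, 1378 and 1115 (-2.28 ± 0.44, adjusted p = 7.03e-04), while Ldha rose to 4617 and 3489 from 1848, 2010, 1968 and 1968 (1.04 ± 0.24, adjusted p = 3.32e-03). The subunits thus moved in opposite directions with no overlap between the groups. Hif1a fell to 913 in both libraries from 1857 to 2484 (-1.26 ± 0.17, adjusted p = 3.01e-05), opposite to its hydroxylase Egln3, which rose to 52 and 60 from 12, 7, 14 and 10 (2.31 ± 0.56, adjusted p = 3.99e-03).

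Slc2a3 rose with BMP4 in OB to 357 and 538 (2.2 ± 0.43, adjusted p = 7.49e-04), and Slc2a1, at 268 and 307, was not called. Pdk4, the starvation-responsive kinase, rose to 53 and 61 from 12, 8, 11 and 7 (2.49 ± 0.44, adjusted p = 3.50e-04; 1.52 with 16 added before the log), and Pdk3 fell (-0.65 ± 0.14, adjusted p = 1.55e-03). Slc16a1 (1.11 ± 0.24, adjusted p = 2.00e-03), Pfkp (1.06 ± 0.23, adjusted p = 1.94e-03), Vegfa (0.90 ± 0.24, adjusted p = 8.41e-03), Pfkfb4 (0.86 ± 0.28, adjusted p = 0.0230) and Pkm (0.45 ± 0.13, adjusted p = 0.0123, with overlapping groups) rose, and Eno2 (-0.67 ± 0.22, adjusted p = 0.0279) and Gpi1 (-0.45 ± 0.09, adjusted p = 7.25e-04) fell. Proliferation genes rose as well, 11 of 18, with sums of 11664 to 12109 against 6115 to 8218, and their part in the result was not tested.

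Of the 14 calls in OB, 8 held with each library left out in turn. Without OB with BMP4 replicate 1, Ldha (0.84, adjusted p = 0.0666), Pfkfb4 (0.73, adjusted p = 0.167) and Eno2 (-0.36, adjusted p = 0.366) were lost, and without replicate 2, Slc16a1 (0.91, adjusted p = 0.0538), Vegfa (0.87, adjusted p = 0.0717), Pkm (0.28, adjusted p = 0.249) and Pfkfb4 (0.99, adjusted p = 0.0680). Pfkfb4 was also lost without OB day 6 replicates 1 (0.77) or 2 (0.71), and Eno2 without replicates 2 (-0.66) or 4 (-0.58). Gapdh, Pgk1, Slc16a3, Bnip3 and Egln1 were not called with BMP4 in OB in the main fit. With the library labelled OA day 14 replicate 2 left out of the shared estimate of spread, 12 genes of the group rose and 6 fell (37.3% of all genes).

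In ODR, where BMP4 has 1 library against 2, 2 genes rose and 3 fell (11.5% of all genes, 5.06% higher and 6.46% lower). Ldhb was 129 against 1636 and 1490 (-3.59 ± 0.62, adjusted p = 1.36e-03). Slc2a3 was 237 against 50 and 47 (2.27 ± 0.60, adjusted p = 0.0204), and Pfkp was 560 against 190 and 223 (1.44 ± 0.33, adjusted p = 8.18e-03). Hk2 (-1.20 ± 0.28, adjusted p = 0.0110) and Pfkm (-0.59 ± 0.18, adjusted p = 0.0426) fell. The fit assumes that the lone library varies like the other groups. None of the 5 was called when the duplicated column was kept as ODR with BMP4 replicate 2 (Ldhb -1.59, adjusted p = 0.525). That column held Ldhb at 2065, Slc2a3 at 66, Pfkp at 234, Hk2 at 834 and Pfkm at 383. For all 5 genes it lay nearer the ODR libraries without BMP4 than the lone BMP4 library. Which of its labels is right cannot be told, so this setting does not measure how well the calls hold. Without ODR day 6 replicate 1, Slc2a3 (2.31, adjusted p = 0.0607), Hk2 (-1.11, adjusted p = 0.0564) and Pfkm (-0.54, adjusted p = 0.146) were lost, and without replicate 2, Slc2a3 (2.22, adjusted p = 0.0802) and Pfkm (-0.64, adjusted p = 0.0919).

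The effect of BMP4 did not differ between OB and ODR for any of the 34 genes in the limma test of the difference (1.26% of all genes), with 4 at an unadjusted p below 0.05 (10.9% of all genes). The smallest adjusted p was that of Hif1a (-0.97 ± 0.29, adjusted p = 0.135). Without the library labelled OA day 14 replicate 2 the tests called Hif1a (adjusted p = 0.0312) and Ldhb (1.31, adjusted p = 0.0204).

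**Figure D4:**
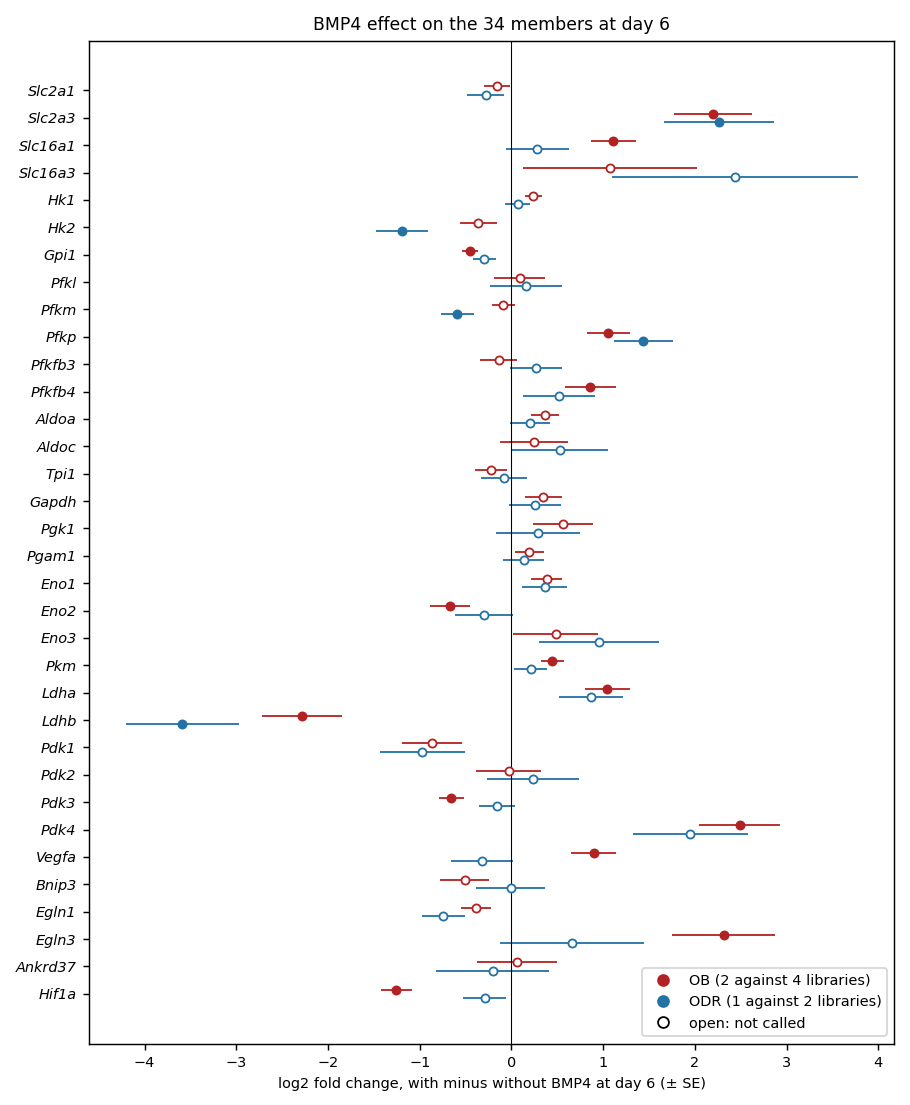
Log2 fold change with BMP4 over without it at day 6 for each of the 34 genes (x axis, on log2(value + 1), bars ± SE from limma) in OB (red, 2 libraries against 4) and ODR (blue, 1 against 2). Filled points passed an adjusted p of 0.05, 14 in OB and 5 in ODR, and Ldhb is the lowest point in both.

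The ratio of Ldha to Ldhb in each library sums up their opposite movement. Whether the values are scaled by gene length is not stated, so the ratio is compared between libraries only. It was 21.2 and 14.3 in OB with BMP4 and 32.7 in ODR with BMP4, against 1.43 to 2.01 and 1.47 to 1.49 without BMP4 at day 6. OB at day 14 had 8.48, 5.66 and 4.68 and ODR at day 14 had 1.92, 1.64 and 1.47. The library labelled OA day 14 replicate 2, which received no BMP4 per its label, had 32.5, against 2.98 and 2.17 in the other OA libraries of that day. The day 9 column with BMP4 had 41.6, MEF 16.2 and mESC 2.21.

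At day 9 each label has 1 library, so differences carry no test. ODB stood at least 2-fold above ODDR for 8 of the 34 genes and below it for 4, where 23.1% of all genes differed as much. Slc16a3 was 302 in ODB and 9 in ODDR, Slc2a3 was 502 and 64, Pdk1 was 105 and 39, and Gapdh was at the ceiling and at 5077. Pdk2, at 19 and 52, and Eno2, at 90 and 212, were lower in ODB. The shared column labelled with BMP4 stood at least 2-fold above ODDR for 7 genes and below it for 2 (20.0% of all genes), with Ldhb at 122 against 641, Ldha at 5072 against 2534 and Pdk4 at 51 against 13.

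The mESC and MEF libraries frame these levels. They differed by at least 2-fold in 50.8% of all genes and in 14 of the 34, 10 of them higher in mESC and 4 lower. Slc2a3 was 5617 in mESC and 49 in MEF, Pfkp was 1718 and 328, and Ldhb was 1230 and 124. Slc16a3, at 323 and 252, and Bnip3, at 221 and 212, were close to each other in both and far below the OB day 14 values of 816 to 1205 and 863 to 1593.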

How the data were processed

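RNA-seq libraries of mouse cells (35 columns, 21350 genes) were read as deposited. The values are a normalised tag count score that the authors deposited as whole numbers, and how they were normalised is not stated in the labels or notes. The submitters' processing notes name bcl2fastq, Bowtie2 2.2.5, RSEM and the build mm10. Read depth is unknown, so no counting interval is given. Groups were taken from the sample labels. The 13860 genes that reached 10 in 2 or more libraries were tested on log2(value + 1) with limma 3.58.1 in R 4.3.3, in 1 fit of 27 libraries and 11 groups (16 residual degrees of freedom), with 17 comparisons and 3 interactions. Genes were called at 0.05 after Benjamini-Hochberg adjustment of p across every gene tested. Folds are on the log2(value + 1) scale, which understates changes of low genes. The column shared by ODR day 6 replicate 3 and ODR with BMP4 day 6 replicate 2 was left out, and labels with 1 library outside the fit were not tested. The scripts were tested on simulated data. Coordinates come from GENCODE M21 (GRCm38) and promoters from RefSeq (GRCm38.p6).

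All 34 genes could be named. Values per library are given for up to 3 genes per role with the greatest difference between OB and ODR at day 14, for paralogues that moved apart, for genes at the ceiling and for genes called against the majority; elsewhere called genes are named from the greatest change, up to 8 per direction, and from related lists up to 3 per direction plus Txnip, Myc, Mycn, Vhl and Epas1. The genes and lists were chosen with earlier results of these data known. Alternatives were another pseudocount, no filter, centring of each library, limma's trend and robust options, only the groups compared, a replicate block, other uses of the shared column, and each library left out.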

Additional observations from a re-analysis of the deposited data

Results flagged for a closer look

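The change from day 6 to day 14 differed between OB and ODR for 26 of the 34 genes by a test of the difference itself (limma, adjusted p below 0.05 over all genes, against 35.4% of all genes tested). Values here are the log2 change in OB minus the log2 change in ODR. The greatest differences were those of Slc16a3 (4.30), Slc2a3 (3.77), Pdk1 (3.69), Pgk1 (3.45), Egln3 (3.28), Slc2a1 (3.26), Bnip3 (2.21) and Pfkl (2.07). Differences of intermediate size were found for Pkm (2.02), Eno3 (1.91), Egln1 (1.75), Pgam1 (1.65), Pfkp (1.63), Eno1 (1.56), Gapdh (1.47) and Vegfa (1.39). The smallest of those in the direction of OB were Ldha (1.34), Slc16a1 (1.33), Pfkfb4 (1.14), Tpi1 (1.09), Aldoa (1.07), Pfkfb3 (0.84) and Gpi1 (0.65). The change was lower in OB for Pdk2 (-1.99), Eno2 (-1.56) and Hif1a (-0.98). Values for Gapdh, Pgk1 and Pkm rest on OB libraries that are at the ceiling at day 14. OB at day 6, with 4 libraries, was the one group large enough for a search for stray libraries, and none of its 34 gene and group pairs held one.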

How the results depend on the processing

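Under the alternatives run, no called difference of the 34 genes changed sign. With each library left out in turn, called genes numbered 27 to 29 for OB against ODR, 24 to 28 for OB against OA and 3 to 11 for OA against ODR at day 14; at day 6 they numbered 0 to 6, 1 to 7 and 0 to 5, and at day 1 from 0 to 1, 0 to 1 and 0 to 0. Between day 6 and day 14 the ranges were 29 to 31 in OB, 2 to 12 in OA and 0 to 2 in ODR, between day 1 and day 6 they were 6 to 21, 5 to 20 and 4 to 17, and with BMP4 they were 10 to 18 in OB and 2 to 8 in ODR. Differences in change gave 23 to 28 (OB against ODR over time), 0 to 0 (OA against ODR over time) and 0 to 2 (BMP4). Of the calls, 27 of 28 for OB against ODR at day 14, 29 of 30 for OB from day 6 to day 14 and 22 of 26 for the difference in change held in every setting. A fit on only the groups compared gave 17 calls in place of 28 for OB against OA at day 14, 0 in place of 6 for OA against ODR at day 14, 0 in place of 1 at day 6, 0 in place of 5 for BMP4 in ODR, 8 in place of 14 for ODR from day 1 to day 6, 0 in place of 6 for OA and 1 in place of 0 for ODR from day 6 to day 14; it has fewer samples. Adding 4 or 16 before the log gave 2 calls for OA against ODR at day 6 and 1 for ODR from day 6 to day 14, and no filter gave 2 for OB against OA at day 6. Keeping the shared column as ODR day 6 gave 8 for OB against ODR and 3 for OA against ODR at day 6 and 2 for ODR from day 6 to day 14. Keeping it as ODR with BMP4 gave 3 for OB against ODR at day 6, 0 for BMP4 in ODR and 1 for the difference in the BMP4 effect, and under both labels 2 for OA against ODR at day 6, 2 for ODR from day 6 to day 14, 0 for BMP4 in ODR and 1 for that difference. The cause was not tested.

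The labels do not say whether replicate numbers pair the samples, and the main fit did not use them. Same-numbered libraries of different groups had a median correlation of deviations of 0.044 (25 of 100 pairs above 0.1). For other pairs it was -0.02 (14 of 202 above 0.1). Of 26 libraries, 18 correlated best with a library of their own number, a hint of pairing from the data and not the design. With a replicate block, 28 genes were called for OB against ODR at day 14, 29 for OB from day 6 to day 14 and 25 for the difference in change, 2 for OA against ODR at day 6 and 2 for ODR from day 6 to day 14. Lost with the block were Eno2 (-0.54, adjusted p = 0.111) for BMP4 in OB and Pfkm (-0.57, adjusted p = 0.0624) for BMP4 in ODR. From day 1 to day 6 they were Egln3 (-1.80, adjusted p = 0.0690) in ODR, Slc16a3 (-2.20, adjusted p = 0.0767), Slc2a3 (-1.21, adjusted p = 0.0585) and Pgam1 (-0.44, adjusted p = 0.0540) in OA, and Slc16a3 (-2.03, adjusted p = 0.106) and Gapdh (-0.40, adjusted p = 0.136) in OB. Pfkfb3 was lost for OB from day 6 to day 14 (0.40, adjusted p = 0.0992) and for the difference in change (0.80, adjusted p = 0.0523), and the block ended no other call.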
